A study of Mus musculus with 15 samples.

Results

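The 36 genes described here are interferon-stimulated genes, the antiviral and immune genes that cells switch on when they sense interferon. They were taken as a list of names, chosen with earlier results of these data known, and looked up on expression arrays of mouse carotid artery. Of the 36, 31 had at least 1 probe set that names that gene alone, out of 22180 genes measured in this way. Oas1a, Dtx3l, Gbp2 and Ifi47 had 1 probe set each that also names other genes, and Ifi44 had 0 in the table used, so these 5 were not analysed here. Ifi35 was measured by 2 probe sets, whose mean was used, and the other 30 by 1 each.

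The series holds 15 arrays of female C57Bl/6J mice aged 21 to 22 weeks, in 4 groups: wildtype non-ligated arteries (4 arrays), wildtype ligated arteries (4 arrays), Has3 deficient non-ligated arteries (4 arrays) and Has3 deficient ligated arteries (3 arrays, numbered 3, 5 and 6 in their titles). In both genotypes the left common carotid artery was tied, which starts the thickening of the inner vessel wall known as neointimal hyperplasia, and arteries were taken 5 days later. Has3 encodes one of the enzymes that make hyaluronan, a sugar polymer of the extracellular matrix. The labels do not say how Has3 was inactivated, whether a non-ligated artery came from the same animal as a ligated one, or whether each array is a separate animal, so the p-values measure the spread between these arrays. RNA of whole artery pieces was measured, in which more cells of a type cannot be told apart from more RNA per cell.

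Type I interferons bind the receptor made of Ifnar1 and Ifnar2, whose kinases phosphorylate Stat2, a part of the factor ISGF3 together with Irf9. ISGF3 binds interferon-stimulated response elements (ISREs) in promoters, while interferon gamma acts mainly through gamma-activated sites (GAS). In a vessel wall macrophages, smooth muscle cells and endothelial cells can all respond to interferon in this way.

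The values are log2 numbers relative to the median of the same probe set over the 15 arrays, so a value of 1 is 2-fold above that median, and levels of different genes cannot be compared. A trace of the level remains in the steps between stored numbers: for Oasl2 and Ifi35 alone among the 31 members they show that the number before centring was at least 8 on every array, as for 16.5% of all genes. The steps of the other 29 members did not show this. By the same trace 6 of 7 smooth muscle markers, 5 of 7 endothelial and 6 of 7 fibroblast markers were at 8 or above on every array, against 0 of 6 epithelial and thyroid and 0 of 7 neuronal markers. The smooth muscle marker without this trace was Acta2, which did not show the steps of numbers of at least 4 either. A missing trace is therefore not read as a low level. Array medians lay between -0.0014 and 0.0167. Neuronal markers had list means from -0.29 to 4.37 over single arrays and fat markers from -1.56 to 1.86. The probe set of Has3 differed by 0.09 ± 0.14 in non-ligated and -0.20 ± 0.16 in ligated arteries between the genotypes (± standard error, limma adjusted p = 0.853 and 1), and does not check the genotype labels.

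Ligation raised most of the interferon-stimulated genes, in both genotypes. In wildtype arteries 22 of the 31 members were higher and 0 lower (limma, p adjusted over all genes by Benjamini-Hochberg, threshold 0.05), where 13.2% of all genes were called higher and 14.6% lower. In Has3-deficient arteries 22 of 31 were higher and 0 lower, beside 10.2% and 8.08% of all genes. At an unadjusted p under 0.05, in either direction, there were 25 and 26 members, beside 36.2% and 29.2% of all genes. The median difference over the members was 0.79 log2 units in wildtype and 0.92 in Has3-deficient arteries, while the medians over all genes were 0.01 and -0.03. A rise of more than 2-fold was called for 9 members in wildtype and 11 in Has3-deficient arteries, beside 3.65% and 3.38% of all genes. Both comparisons use separate arrays but 1 shared estimate of each gene's spread: 20 members passed in both, Ifit1 and Rsad2 in wildtype alone, Ddx58 and Igtp in Has3-deficient arteries alone, and Ifit2, Ifit3, Mx2, Cmpk2, Ifi35, Herc6 and Gbp3 in neither. The 4 that passed in 1 genotype do not show a difference between genotypes, since none of them passed the test of that difference given further on.

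**Figure D1:**
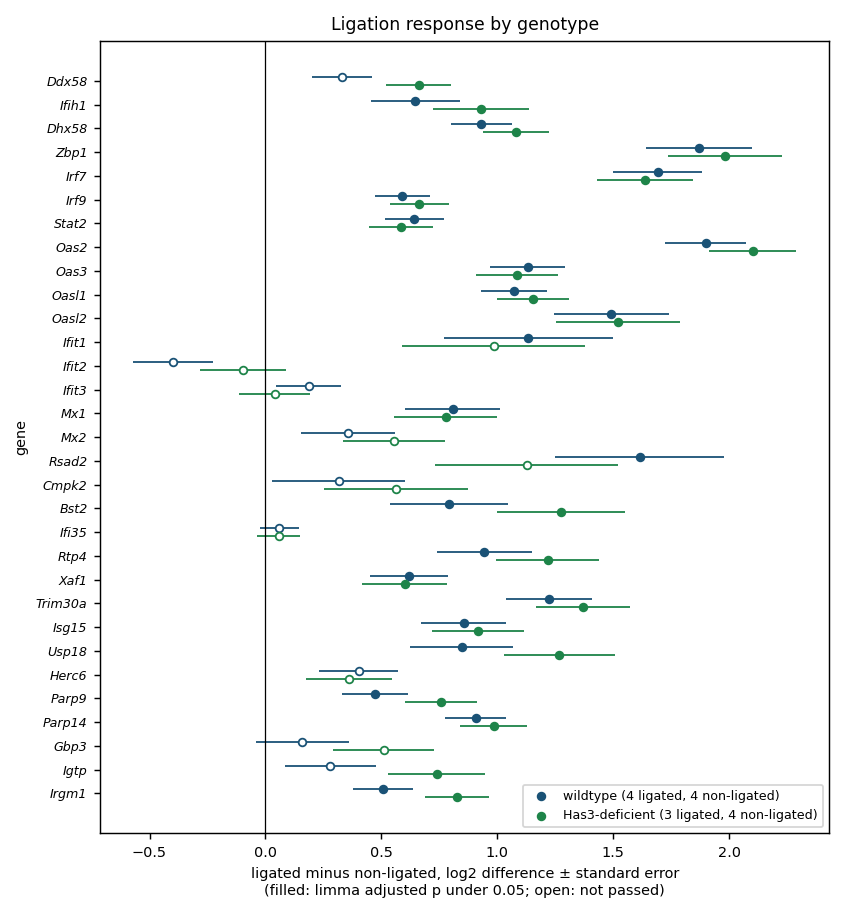
The horizontal axis gives the ligated minus non-ligated log2 difference of each of the 31 members with its standard error, in wildtype (blue) and Has3-deficient (green) arteries. Filled points passed at a limma adjusted p under 0.05 and open points did not; the largest differences, for Oas2, are 1.90 and 2.10, and Ifit2 is the 1 member on the negative side in both genotypes.

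Ligated and non-ligated arrays did not overlap for 23 of 31 members in wildtype, where 14.0% of all genes were higher without overlap, and for 24 of 31 in Has3-deficient arteries, beside 13.0% of all genes. No member was lower without overlap in either genotype (16.0% and 13.4% of all genes). The mean over the 31 members ran from -0.32 to -0.14 on wildtype non-ligated arrays and from -0.49 to -0.14 on Has3-deficient non-ligated ones. It was 0.42, 0.36, 1.11 and 0.36 on wildtype ligated arrays 1 to 4 and 0.64, 0.59 and 0.41 on the Has3-deficient ligated arrays. Array 3 of the wildtype ligated group was thus far above the others of its group, and it was named in the rule that set up the list, so its height is described and not tested.

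**Figure D2:**
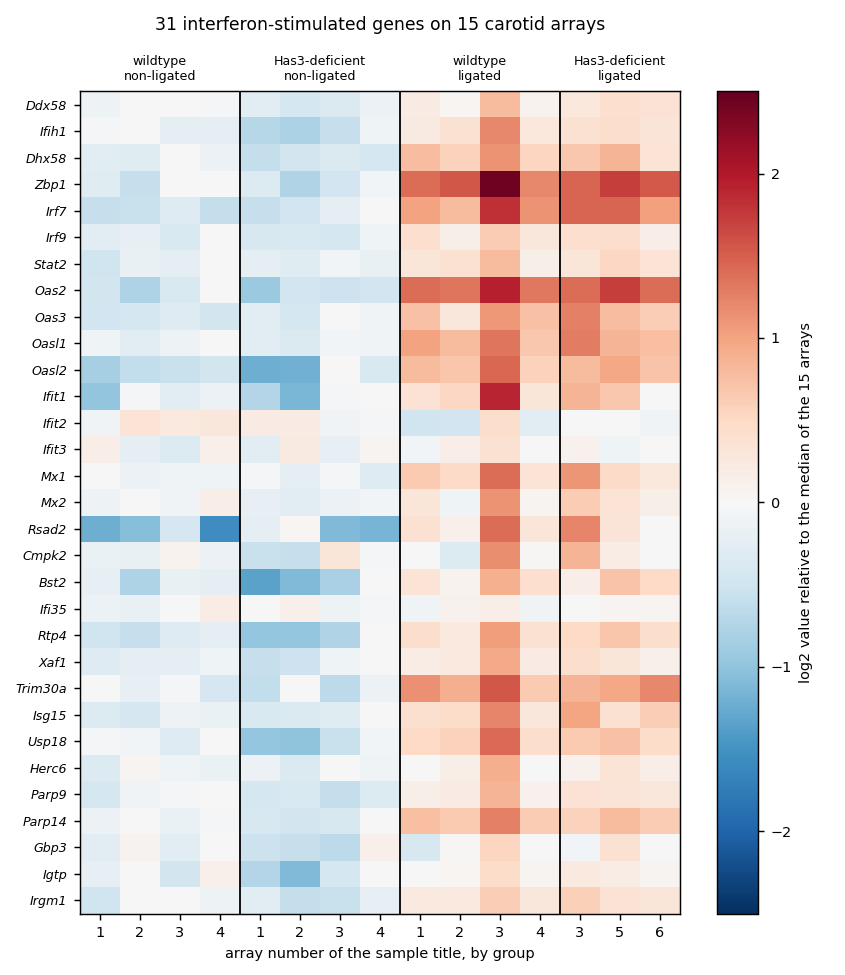
Each row is 1 of the 31 members and each column 1 array, grouped by genotype and ligation; colour gives the log2 value relative to the median of the gene's probe set over the 15 arrays (red above, blue below). Ligated arrays are red for most rows, wildtype ligated array 3 is the darkest column, and the rows of Ifit3 and Ifi35 stay nearest to 0.

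Wildtype ligated array 3 was the highest of its group for all 31 members, while it was the highest of the 4 for 27.5% of all genes. It was the highest of all 15 arrays for 29 members (8.29% of all genes), the exceptions being Oas3 and Ifi35. The excess over the mean of arrays 1, 2 and 4 had a median of 0.69 log2 units over the members and of 0.003 over all genes, and ran from 0.18 for Ifi35 to 1.51 for Ifit1. Of all 22180 genes, 99 were more than 0.5 above the next array of the group on array 3. Of these 99, 34 belong to the members or to the lists of interferon genes below, among them 20 of the 31 members (64.5%, beside 0.446% of all genes). Leaving this array out reduced the median wildtype ligation response from 0.79 to 0.58, yet 20 members still rose and 1, Ifit2, then fell, beside 12.2% of all genes called higher and 12.8% lower in that fit. Ifit1 and Bst2 were the 2 calls lost. In Has3-deficient arteries all 22 calls of the full fit remained without that array, and Ifit1, Mx2, Rsad2 and Herc6 passed in addition (26 in all): their differences are the same in that fit, and the spread shared by the groups no longer holds array 3.

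**Figure D3:**
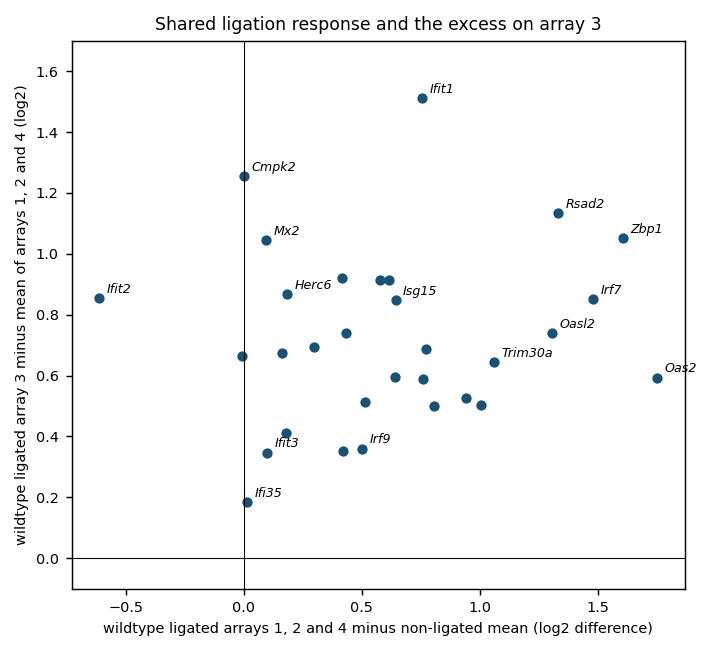
Each point is 1 of the 31 members; the horizontal axis is the mean of wildtype ligated arrays 1, 2 and 4 minus the wildtype non-ligated mean, and the vertical axis is array 3 minus the mean of arrays 1, 2 and 4 (both log2 differences). All points lie above 0 on the vertical axis; Oas2 has the largest shared response (1.75) with an excess of 0.59, while Cmpk2 has a shared response of 0.0022 and an excess of 1.25.

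Many of the promoters at hand hold the letters of an ISRE. RefSeq promoter windows (250 bases before to 50 after the annotated start, GRCm38.p6) were found for 27 of the 36 listed genes. The letters of an ISRE core, GAAA then any 2 bases (NN) then GAAA, on either strand, occurred in 15 of these 27 (55.6%) and in 3.99% of the 27025 genes of the table. The GAS core, TTCNNNGAA, which reads alike on both strands and may overlap an ISRE match, occurred in 5 of 27 (18.5%) and in 9.55% of all genes. A match is a description of the letters and not a bound site. Here 7 stretches of 80 bases, all before the start, are shown as chosen examples, and all but that of Irf7 hold a match. Wildtype ligation differences of these genes ran from 0.19 (Ifit3) to 1.69 (Irf7), those of all members from -0.40 to 1.90. Capitals mark the ISRE-like letters, and matches that overlap run on as 1 block in Isg15 and Irgm1.
Isg15: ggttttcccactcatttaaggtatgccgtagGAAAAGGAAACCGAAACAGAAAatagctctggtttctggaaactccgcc
Ifit1: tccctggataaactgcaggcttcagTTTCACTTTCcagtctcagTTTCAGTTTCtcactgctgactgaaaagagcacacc
Ifit3: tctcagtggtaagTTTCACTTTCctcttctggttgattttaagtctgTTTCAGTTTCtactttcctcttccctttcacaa
Oas3: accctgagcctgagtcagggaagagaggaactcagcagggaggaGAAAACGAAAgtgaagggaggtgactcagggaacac
Rsad2: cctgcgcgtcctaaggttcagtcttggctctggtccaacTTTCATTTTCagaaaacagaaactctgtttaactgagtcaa
Irgm1: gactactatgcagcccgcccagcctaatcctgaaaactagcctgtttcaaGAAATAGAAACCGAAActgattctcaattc
Irf7: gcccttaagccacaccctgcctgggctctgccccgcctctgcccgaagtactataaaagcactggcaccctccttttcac
They lie at chr4:156200848-156200927 (Isg15, minus strand), chr19:34640760-34640839 (Ifit1, plus), chr19:34583360-34583439 (Ifit3, plus), chr5:120777699-120777778 (Oas3, minus), chr12:26456532-26456611 (Rsad2, minus), chr11:48871421-48871500 (Irgm1, minus) and chr7:141266425-141266504 (Irf7, minus). Within these stretches Isg15 holds 3 matches in a row, Ifit1, Ifit3 and Irgm1 hold 2 and Oas3 and Rsad2 hold 1, while Irf7 has none in its whole window. Of the 13 measured members with a match 9 rose in wildtype, with a median difference of 0.65, and of the 9 without one 5 rose, with a median of 0.59. In Has3-deficient arteries these counts were again 9 and 5, with medians of 0.92 and 0.60. The excess on wildtype ligated array 3 had a median of 0.64 with a match and 0.74 without. Members with and without the letters are thus found among those that rose and among those that did not pass; Ifit1 and Ifit3 both hold 2 matches, and only Ifit1 passed, in wildtype.

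Among the sensors of foreign nucleic acid, 3 of 4 rose in wildtype and 4 of 4 in Has3-deficient arteries. Zbp1, which binds Z-form nucleic acids and can start necroptotic cell death, had the largest change of the group. Wildtype arrays of Zbp1 had -0.30, -0.58, 0.00 and -0.01 without ligation and 1.40, 1.55, 2.44 and 1.20 with it. Has3-deficient arrays had -0.35, -0.74, -0.49 and -0.07 and, ligated, 1.46, 1.72 and 1.53. The groups were far apart in both genotypes, by 1.87 ± 0.23 in wildtype (3.65-fold, adjusted p = 2.56e-05 with limma) and 1.98 ± 0.25 in Has3-deficient arteries (3.95-fold, adjusted p = 5.14e-05).

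The other 3 sensors are the cytosolic RNA helicases. Dhx58 (LGP2), a regulator of the family without a signalling domain of its own, read -0.27, -0.29, 0.00 and -0.15 on the wildtype non-ligated and 0.77, 0.58, 1.13 and 0.53 on the ligated arrays 1 to 4. Its Has3-deficient values were -0.59, -0.46, -0.35 and -0.44 without and 0.67, 0.85 and 0.35 with ligation. Every ligated array lay above every non-ligated one, and the rise was 0.93 ± 0.13 and 1.08 ± 0.14 (limma adjusted p = 8.77e-05 and 8.02e-05). Ifih1 (MDA5), which detects long double-stranded RNA, read -0.03, 0.00, -0.24 and -0.22 and, ligated, 0.23, 0.37, 1.21 and 0.27 in wildtype. In Has3-deficient arteries it read -0.71, -0.79, -0.57 and -0.11 and, ligated, 0.39, 0.44 and 0.32. Array 3 was 0.84 above the next wildtype ligated array, the states did not overlap in either genotype, and the change was 0.65 ± 0.19 and 0.93 ± 0.21 (limma adjusted p = 0.0209 and 0.0058). The wildtype call of Ifih1 was lost without non-ligated array 3 (adjusted p = 0.0548) or 4 (0.0528), each with a limma difference of 0.61; without ligated array 3 it passed with 0.42 (0.0344). Ddx58 (RIG-I), which detects RNA with uncapped ends, had wildtype values of -0.13, 0.00, -0.0014 and -0.05 without ligation and 0.21, 0.04, 0.79 and 0.09 with it. The Has3-deficient ones were -0.29, -0.44, -0.35 and -0.15 and 0.27, 0.43 and 0.36. Arrays 2 and 4 of the wildtype ligated group were just above the non-ligated range, and the difference of 0.33 ± 0.13 did not pass (limma adjusted p = 0.077), while that of 0.66 ± 0.14 did (adjusted p = 0.00408). Without wildtype ligated array 2 the wildtype difference of Ddx58 was 0.41 and passed (limma adjusted p = 0.038), and without array 3 it was 0.16 and did not (0.143).

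The 3 transcription factors rose in both genotypes. Irf7, which is induced by interferon and in turn drives more interferon genes, changed most. Values of Irf7 in wildtype were -0.57, -0.55, -0.32 and -0.59 non-ligated and 0.999, 0.80, 1.82 and 1.11 ligated. In Has3-deficient arteries they were -0.58, -0.48, -0.24 and 0.00 non-ligated and 1.46, 1.45 and 1.02 ligated. No array overlapped between ligated and non-ligated arteries, and the rise was 1.69 ± 0.19 (3.23-fold) and 1.64 ± 0.21 (3.11-fold; limma adjusted p = 1.32e-05 and 6.03e-05). The ISGF3 genes Stat2 and Irf9 moved less. Stat2 read -0.50, -0.19, -0.24 and 0.00 in wildtype non-ligated and 0.30, 0.39, 0.79 and 0.15 in ligated arteries. In Has3-deficient arteries it read -0.22, -0.30, -0.08 and -0.18 and, ligated, 0.30, 0.53 and 0.34. Those differences were 0.64 ± 0.13 and 0.58 ± 0.14 (limma adjusted p = 0.00151 and 0.00812), without overlap. For Irf9 the wildtype arrays gave -0.28, -0.20, -0.39 and 0.00 without and 0.43, 0.14, 0.64 and 0.28 with ligation. Has3-deficient arrays gave -0.41, -0.38, -0.44 and -0.10 and 0.42, 0.43 and 0.16. Irf9 rose by 0.59 ± 0.12 and 0.66 ± 0.13 (limma adjusted p = 0.00145 and 0.00184), again without overlap, and its excess on array 3 (0.36) was among the smaller ones.

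All 4 oligoadenylate synthetase genes measured rose in both genotypes. The active enzymes of this family respond to double-stranded RNA and make the oligoadenylates that switch on RNase L. Oas2 had the largest ligation response of the 31 members. On wildtype non-ligated arrays 1 to 4 Oas2 read -0.45, -0.77, -0.38 and 0.00, and on ligated arrays 1 to 4 it read 1.39, 1.34, 1.94 and 1.32. The Has3-deficient arrays gave -0.93, -0.47, -0.52 and -0.48 without ligation and 1.39, 1.73 and 1.39 with it. Wildtype ligated arrays 1, 2 and 4 lay close together and array 3 above them, and the rise was 1.90 ± 0.17 (3.73-fold) and 2.10 ± 0.19 (4.29-fold; limma adjusted p = 1.94e-06 and 1.95e-06). Oasl2 followed, with -0.84, -0.61, -0.56 and -0.46 on wildtype non-ligated and 0.79, 0.69, 1.43 and 0.58 on ligated arrays. Its Has3-deficient arrays read -1.22, -1.20, 0.00 and -0.39 and, ligated, 0.79, 0.96 and 0.71. Non-ligated arrays 1 and 2 of the Has3-deficient group were the lowest; the rise was 1.49 ± 0.25 and 1.52 ± 0.27 (limma adjusted p = 0.000375 and 0.00103).

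Oas3, the longest of the family, read -0.48, -0.43, -0.32 and -0.46 and, ligated, 0.73, 0.28, 1.09 and 0.74 in wildtype. Has3-deficient arteries gave -0.29, -0.44, 0.00 and -0.08 and 1.26, 0.77 and 0.62. It is 1 of the 2 members for which wildtype ligated array 3 was not the highest of all arrays, since Has3-deficient ligated array 3 was above it, and it rose by 1.13 ± 0.16 and 1.08 ± 0.18 (limma adjusted p = 0.000108 and 0.00052). Oasl1, which in mice restrains the translation of Irf7, read -0.11, -0.27, -0.12 and 0.00 in wildtype non-ligated and 0.999, 0.78, 1.34 and 0.67 in ligated arteries. The Has3-deficient values were -0.27, -0.37, -0.06 and -0.10 and 1.29, 0.84 and 0.74. Its rise was 1.07 ± 0.14 and 1.15 ± 0.16 (limma adjusted p = 5.92e-05 and 0.000106), and neither gene overlapped between states.

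The IFIT genes, whose proteins bind foreign RNA by its cap and end structure, went separate ways although they are neighbours on chromosome 19. Ifit1 passed in wildtype alone. Wildtype arrays of Ifit1 had -0.98, -0.02, -0.27 and -0.15 without ligation and 0.37, 0.53, 1.91 and 0.31 with it. Has3-deficient arrays had -0.74, -1.14, -0.03 and 0.00 and, ligated, 0.84, 0.68 and 0.00. Wildtype ligated array 3 was 1.39 above the next array, and Has3-deficient ligated array 6 lay at the level of the highest non-ligated arrays. The difference was 1.13 ± 0.37 in wildtype (limma adjusted p = 0.0317) and 0.98 ± 0.39 in Has3-deficient arteries (adjusted p = 0.108). Without array 3 the wildtype difference was 0.76 and did not pass (limma adjusted p = 0.0892), nor did it without wildtype non-ligated array 1 (0.93, adjusted p = 0.0976) or 3 (1.16, adjusted p = 0.0551). In Has3-deficient arteries the same difference of 0.98 passed in the fit without wildtype ligated array 3 (limma adjusted p = 0.0375).

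Ifit2 pointed the other way. Values of Ifit2 in wildtype were -0.08, 0.35, 0.25 and 0.29 non-ligated and -0.50, -0.48, 0.44 and -0.26 ligated. In Has3-deficient arteries they were 0.21, 0.20, -0.09 and -0.05 non-ligated and 0.01, 0.00 and -0.09 ligated. Wildtype ligated arrays 1, 2 and 4 were below every non-ligated array of that genotype, and array 3 was above all of them. The difference of -0.40 ± 0.17 did not pass (limma adjusted p = 0.11), but without array 3 it was -0.61 and passed as lower (adjusted p = 0.00107). In Has3-deficient arteries it was -0.10 ± 0.19 (limma adjusted p = 0.8). Ifit3 stayed near its median. On wildtype non-ligated arrays 1 to 4 Ifit3 read 0.17, -0.23, -0.34 and 0.13, and on ligated arrays 1 to 4 it read -0.08, 0.17, 0.38 and 0.00. The Has3-deficient arrays gave -0.27, 0.23, -0.20 and 0.07 without ligation and 0.11, -0.11 and -0.0037 with it. Its groups overlapped, and neither 0.19 ± 0.14 nor 0.04 ± 0.15 passed (limma adjusted p = 0.4 and 0.903).

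Of the 9 measured antiviral effectors outside these families, 6 rose in wildtype and 5 in Has3-deficient arteries. Rsad2 (viperin), which makes a nucleotide that stops viral polymerases, had the largest wildtype change. Wildtype arrays of Rsad2 had -1.22, -1.07, -0.41 and -1.55 without ligation and 0.38, 0.12, 1.40 and 0.31 with it. Has3-deficient arrays had -0.23, 0.05, -1.10 and -1.17 and, ligated, 1.23, 0.32 and 0.00. Values spread widely in both states, and in Has3-deficient arteries non-ligated array 2 was above ligated array 6. The rise in wildtype was 1.61 ± 0.37 (3.06-fold, limma adjusted p = 0.00393), while 1.13 ± 0.40 in Has3-deficient arteries did not pass (adjusted p = 0.065). It did without Has3-deficient non-ligated array 2 (1.35, limma adjusted p = 0.0366) or without wildtype ligated array 3 (1.13, adjusted p = 0.0427). Cmpk2, a nucleotide kinase gene next to Rsad2 on chromosome 12, did not pass, at 0.32 ± 0.29 and 0.56 ± 0.31 (limma adjusted p = 0.498 and 0.259); its wildtype ligated arrays read 0.01, -0.34, 1.16 and 0.03, so that array 3 was the 1 clearly raised.

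Trim30a, a ubiquitin ligase that dampens Toll-like receptor signalling, rose in both genotypes. Values of Trim30a in wildtype were -0.0037, -0.20, -0.03 and -0.41 non-ligated and 1.14, 0.90, 1.54 and 0.66 ligated. In Has3-deficient arteries they were -0.62, 0.00, -0.66 and -0.15 non-ligated and 0.86, 0.97 and 1.20 ligated. Ligated and non-ligated arrays were well apart, by 1.22 ± 0.19 and 1.37 ± 0.20 (limma adjusted p = 0.000186 and 0.000239). Rtp4, an interferon-induced chaperone of receptors, read -0.51, -0.57, -0.33 and -0.25 and, ligated, 0.45, 0.25, 1.04 and 0.38 in wildtype. In Has3-deficient arteries it read -0.98, -0.96, -0.76 and 0.00 and, ligated, 0.49, 0.69 and 0.44. The lowest values were those of Has3-deficient non-ligated arrays 1 to 3, and the rise was 0.94 ± 0.20 and 1.22 ± 0.22 (limma adjusted p = 0.00294 and 0.00131).

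Bst2 (tetherin), which holds budding virus at the cell surface, rose by 0.79 ± 0.25 in wildtype (limma adjusted p = 0.0313) and 1.28 ± 0.27 in Has3-deficient arteries (adjusted p = 0.00457). The wildtype call of Bst2 was lost without ligated array 1 (0.82, limma adjusted p = 0.0525), 3 (0.64, 0.101) or 4 (0.80, 0.0588) or non-ligated array 2 (0.65, 0.101). Mx1, a dynamin-like GTPase whose protein is not functional in C57BL/6 mice, rose by 0.81 ± 0.21 and 0.78 ± 0.22 (limma adjusted p = 0.00854 and 0.0251), and its relative Mx2 did not pass (0.36 ± 0.20 and 0.55 ± 0.22), but in Has3-deficient arteries it did without wildtype ligated array 3 (limma adjusted p = 0.00536). The Has3-deficient call of Mx1 was lost without non-ligated array 2 (0.75, adjusted p = 0.055) or 4 (0.72, 0.0556) or ligated array 3 (0.54, 0.146). Xaf1, a pro-apoptotic zinc finger protein, rose by 0.62 ± 0.17 and 0.60 ± 0.18 (limma adjusted p = 0.013 and 0.0341), and its Has3-deficient call was lost without non-ligated array 1 (0.51, adjusted p = 0.0948) or 2 (0.53, 0.0865) or ligated array 3 (0.53, 0.137) or 5 (0.60, 0.0926).

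Ifi35, a partner of Nmi, had the smallest wildtype change of the 31 members. On wildtype non-ligated arrays 1 to 4 Ifi35 read -0.16, -0.18, 0.00 and 0.18, and on ligated arrays 1 to 4 it read -0.09, 0.10, 0.16 and -0.09. The Has3-deficient arrays gave -0.02, 0.12, -0.13 and -0.05 without ligation and -0.0028, 0.06 and 0.06 with it. Its groups overlapped in both genotypes, the differences were 0.06 ± 0.09 and 0.06 ± 0.09 (limma adjusted p = 0.693 and 0.755), and its 2 probe sets gave 0.044 and 0.077 in wildtype, and -0.029 and 0.143 on the Has3-deficient side.

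In the ISG15 system 2 of 3 genes rose in each genotype. Isg15 encodes a ubiquitin-like protein that is attached to other proteins or released. Wildtype arrays of Isg15 had -0.34, -0.42, -0.12 and -0.17 without ligation and 0.39, 0.46, 1.23 and 0.29 with it. Has3-deficient arrays had -0.38, -0.35, -0.30 and 0.00 and, ligated, 0.98, 0.38 and 0.62. Every ligated array was above every non-ligated one, by 0.86 ± 0.18 (1.81-fold) and 0.92 ± 0.20 (1.89-fold; limma adjusted p = 0.00266 and 0.00464). Usp18 removes Isg15 from its targets and shuts down the type I interferon receptor. Values of Usp18 in wildtype were -0.05, -0.08, -0.32 and 0.00 non-ligated and 0.49, 0.57, 1.42 and 0.45 ligated. In Has3-deficient arteries they were -0.96, -1.002, -0.57 and -0.06 non-ligated and 0.66, 0.73 and 0.47 ligated. Has3-deficient non-ligated arrays 1 and 2 were the lowest, and the rise was 0.85 ± 0.22 and 1.27 ± 0.24 (limma adjusted p = 0.00994 and 0.00174). Herc6, the main ligase for Isg15 in mice, read -0.34, 0.07, -0.10 and -0.17 in wildtype non-ligated and 0.01, 0.14, 0.92 and -0.0039 in ligated arteries. Its Has3-deficient values were -0.15, -0.36, 0.00 and -0.10 and 0.11, 0.35 and 0.16. Wildtype ligated array 3 was 0.77 above the next array, and 0.40 ± 0.17 and 0.36 ± 0.18 did not pass (limma adjusted p = 0.102 and 0.216); the latter did in the fit without that array (adjusted p = 0.0274).

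Parp9 and Parp14, of the ADP-ribosyltransferase family, rose in both genotypes. Parp14 read -0.14, -0.0022, -0.16 and -0.02 and, ligated, 0.74, 0.66, 1.27 and 0.64 in wildtype. Has3-deficient arteries had -0.40, -0.46, -0.40 and 0.00 and 0.58, 0.80 and 0.63. States did not overlap, and the rise was 0.91 ± 0.13 and 0.98 ± 0.14 (limma adjusted p = 0.000121 and 0.000208). Parp9, which works in a complex with Dtx3l, had -0.44, -0.09, -0.05 and 0.00 on wildtype non-ligated and 0.15, 0.21, 0.85 and 0.10 on ligated arrays. Has3-deficient values were -0.45, -0.37, -0.59 and -0.34 and 0.37, 0.31 and 0.27. Its rise was smaller, 0.47 ± 0.14 and 0.76 ± 0.15 (limma adjusted p = 0.0227 and 0.00308), and the wildtype call did not hold without non-ligated array 1 (0.38, limma adjusted p = 0.0744); without ligated array 3 it passed with 0.30 (0.0351).

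The interferon-induced GTPases, which attack the vacuoles of intracellular pathogens and respond mainly to interferon gamma, had median differences of 0.28 in wildtype and 0.74 in Has3-deficient arteries. In wildtype 1 of 3 rose and in Has3-deficient arteries 2 of 3. On wildtype non-ligated arrays 1 to 4 Irgm1 read -0.50, 0.00, -0.01 and -0.12, and on ligated arrays 1 to 4 it read 0.24, 0.25, 0.61 and 0.29. The Has3-deficient arrays gave -0.29, -0.60, -0.55 and -0.21 without ligation and 0.59, 0.35 and 0.30 with it. Irgm1 did not overlap between states and rose by 0.51 ± 0.13 and 0.83 ± 0.14 (limma adjusted p = 0.00807 and 0.000674). Igtp had wildtype values of -0.20, 0.00, -0.46 and 0.13 and, ligated, 0.00, 0.06, 0.45 and 0.08. Has3-deficient arrays gave -0.73, -1.11, -0.43 and 0.00 and 0.25, 0.19 and 0.07, with non-ligated array 2 the lowest. The wildtype difference of 0.28 ± 0.19 did not pass (limma adjusted p = 0.348) and that of 0.74 ± 0.21 in Has3-deficient arteries did (adjusted p = 0.0246). That call of Igtp was lost without Has3-deficient non-ligated array 1 (0.69, limma adjusted p = 0.0635) or 2 (0.56, 0.0561) or ligated array 3 (0.70, 0.0897) or 5 (0.73, 0.074). For Gbp3 the wildtype values were -0.29, 0.10, -0.28 and 0.02 and, ligated, -0.40, 0.02, 0.54 and 0.0049. They were -0.55, -0.57, -0.65 and 0.13 and -0.06, 0.37 and 0.00 in Has3-deficient arteries. Both states overlapped, and 0.16 ± 0.20 and 0.51 ± 0.22 did not pass (limma adjusted p = 0.65 and 0.132); without Has3-deficient non-ligated array 4 the latter was 0.69 and passed (adjusted p = 0.0247).

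Between the genotypes no member passed. In ligated arteries 0 of 31 members passed in either direction with limma (0% of all genes higher and 0% lower), and 0 had an unadjusted p under 0.05 (4.1% of all genes). The median difference over the members was -0.0075, beside -0.0067 over all genes, and 15 of 31 were positive. Isg15 differed by 0.07 ± 0.20, Oas2 by 0.0045 ± 0.19 and Irf7 by 0.13 ± 0.21. The 95% interval of limma's fit, unadjusted, lay within a 2-fold difference either way for 30 of 31 members and within 0.5 log2 units for 17; the exception to the first was Ifit1 (-0.27 ± 0.39, interval -1.12 to 0.58). No member was separated without overlap in either direction, beside 3.55% of all genes higher and 3.35% lower. For 29 members wildtype ligated array 3 was the highest of all 15 arrays. A separation as higher in Has3-deficient arteries was therefore not possible for them, and its absence is not read as a result. Without wildtype ligated array 3 the median difference was 0.15 and again 0 members passed with limma. The counts of signs and of intervals above are from the fit with that array.

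In non-ligated arteries 0 members passed with limma, beside 0.00902% of all genes higher and 0.0766% lower in Has3-deficient arteries. An unadjusted p under 0.05 was seen for 3 of 31 members, beside 13.4% of all genes. The median difference was -0.13 (0.01 over all genes), and 24 of 31 members were lower in Has3-deficient arteries. The 95% interval lay within a 2-fold difference for 28 of 31 members and within 0.5 log2 units for 8. Usp18 differed most (-0.54 ± 0.22, limma adjusted p = 0.315). Ddx58 (-0.26 ± 0.13) and Dhx58 (-0.28 ± 0.13) were the 2 members without overlap, lower on every Has3-deficient non-ligated array, where 3.82% of all genes were lower and 2.4% higher without overlap. Within the Has3-deficient non-ligated group the mean over the members was -0.49, -0.49, -0.33 and -0.14 on arrays 1 to 4. Macrophage markers on the same arrays had means of -1.24, -0.81, -0.49 and -0.11; their part in the members' values was not tested.

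For the ligation response itself no difference between genotypes passed. With limma 0 of 31 members passed as different (0% of all genes in each direction), 0 had an unadjusted p under 0.05 (8.12% of all genes), and the lowest adjusted p was 0.684. The median of the difference of responses was 0.11 (-0.02 over all genes), 21 of 31 being positive. Without wildtype ligated array 3 the median wildtype response was 0.58 and not 0.79, beside 0.92 in Has3-deficient arteries. The differences of responses given here are from the fit with that array, and without it again 0 members passed with limma. The 95% interval lay within a 2-fold difference for 25 of 31 members and within 0.5 log2 units for 4. Bst2 (0.48 ± 0.37), Rsad2 (-0.49 ± 0.54) and Igtp (0.46 ± 0.29) had the widest gaps between the genotypes' responses. For the 4 members called in 1 genotype the difference of the responses was -0.15 ± 0.54 for Ifit1, -0.49 ± 0.54 for Rsad2, 0.33 ± 0.19 for Ddx58 and 0.46 ± 0.29 for Igtp.

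Upstream of these genes most receptors rose, while interferon genes were called no more often than all genes. Of 17 interferon genes measured 1 was higher in wildtype (Ifna14, 0.40 ± 0.10, limma adjusted p = 0.00504) and 0 in Has3-deficient arteries, where Ifna14 was at -0.02 ± 0.10. Of all genes, 13.2% were called higher in wildtype and 10.2% in Has3-deficient arteries. Ifnb1 differed by -0.04 ± 0.08 and 0.12 ± 0.09 and Ifng by 0.04 ± 0.06 and 0.02 ± 0.07. Of the 6 receptor genes 5 rose in each genotype: Il10rb by 1.34 ± 0.09 and 1.27 ± 0.10, Ifnar1 by 1.06 ± 0.09 and 1.01 ± 0.10, Ifnar2 by 0.77 ± 0.10 and 0.85 ± 0.11, and the gamma receptor genes Ifngr2 by 0.59 ± 0.11 and 0.44 ± 0.12 and Ifngr1 by 0.32 ± 0.07 and 0.53 ± 0.08. Ifnlr1, of the lambda receptor, did not pass (0.13 ± 0.11 and 0.26 ± 0.12). On wildtype ligated arrays 1 to 4 the mean over the receptors was 0.66, 0.55, 0.48 and 0.39, so array 3 was not the highest there. Array 3 was the highest of the group for 0 of 6 receptors (27.5% of all genes).

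Of 10 genes of signal transduction and feedback 6 rose in each genotype, led in wildtype by Socs3, an inhibitor of cytokine signalling (1.33 ± 0.14), Irf8 (0.98 ± 0.07), Jak2 (0.50 ± 0.11) and Jak1 (0.47 ± 0.06). Of 11 genes of nucleic acid sensing 8 rose and 1 fell in each genotype. Of all genes, 13.2% rose and 14.6% fell in wildtype, and 10.2% rose and 8.08% fell in Has3-deficient arteries. Sting1, the adaptor for cytosolic DNA, rose by 1.85 ± 0.14 and 2.03 ± 0.15, the DNA sensor Aim2 by 1.68 ± 0.15 and 1.76 ± 0.16, and the endosomal receptors Tlr7 and Tlr9 by 1.52 ± 0.15 and 1.37 ± 0.11 in wildtype. Mavs, named after its values were seen, was the gene that fell (-0.32 ± 0.09 and -0.30 ± 0.10). In wildtype this call for Mavs did not hold without ligated array 3 (-0.28, limma adjusted p = 0.0527). Array 3 was the highest of its group for 4 of these 11 genes (36.4%, beside 27.5% of all genes).

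Most other genes induced by type I interferon also rose. Of 29 measured 21 rose and 1 fell in wildtype, beside 13.2% and 14.6% of all genes. In Has3-deficient arteries 17 rose and 0 fell, beside 10.2% and 8.08% of all genes. The median differences were 0.62 and 0.67. Slfn1, a growth regulator of lymphocytes, rose by 2.16 ± 0.18, Ifi204, a DNA-binding protein of the same family as Aim2, by 2.13 ± 0.26, Trim25, which ubiquitinates RIG-I, by 1.81 ± 0.14 and Ms4a4c by 1.68 ± 0.44 in wildtype. The 1 gene that fell, Ifi27, named after its values were seen, had -0.83 ± 0.26; without array 3, 19 rose and 0 fell, Ifi27 being at -0.78 (limma adjusted p = 0.0708). Array 3 was the highest of the wildtype ligated group for 25 of these 29 genes (86.2%, beside 27.5% of all genes), with a median excess of 0.37.

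Genes of the interferon gamma response and of antigen presentation rose in part. In wildtype 9 of 17 rose and 1 fell, beside 13.2% and 14.6% of all genes. In Has3-deficient arteries 8 of 17 rose and 0 fell, beside 10.2% and 8.08% of all genes. Cd274, the checkpoint ligand PD-L1, rose by 2.08 ± 0.26 and 2.15 ± 0.28, the chemokine Cxcl10 by 1.77 ± 0.40 and 1.60 ± 0.43, and the peptide transporter Tap1 by 0.94 ± 0.10 and 0.89 ± 0.10. Gbp4 fell by 0.96 in wildtype (limma adjusted p = 0.000547) and was at -0.31 ± 0.18 in Has3-deficient arteries (adjusted p = 0.284). Array 3 was the highest of its group for 13 of the 17 (76.5%, beside 27.5% of all genes), with a median excess of 0.40. Without it 7 rose and 1 fell.

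**Figure D4:**
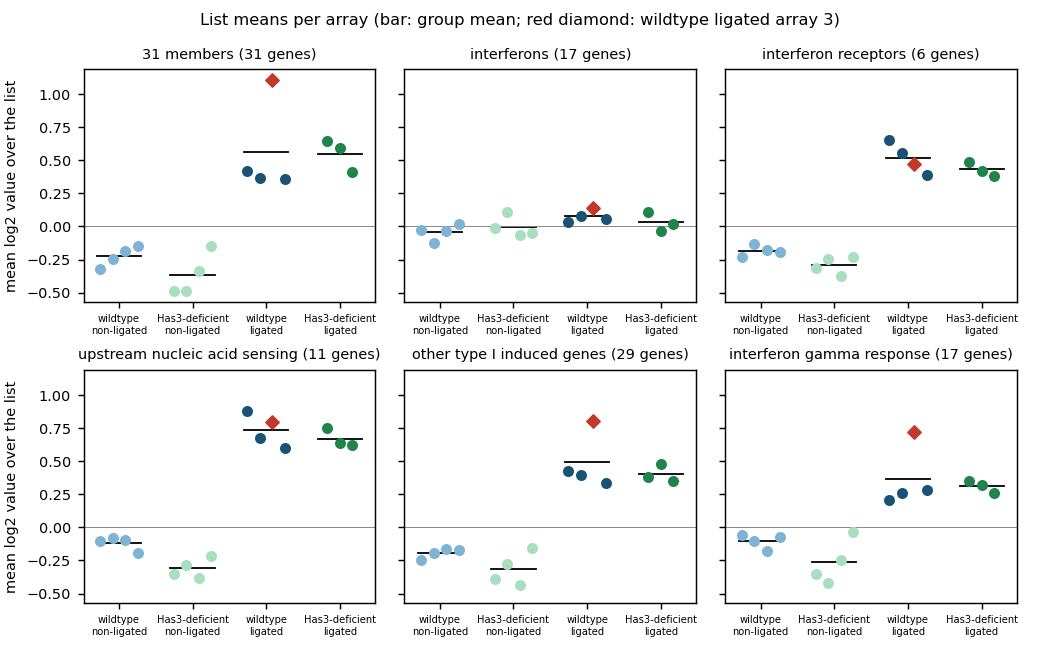
Each panel shows the mean log2 value over 1 gene list on each of the 15 arrays, by group; bars are group means and the red diamond is wildtype ligated array 3. In the panel of the 31 members the diamond is at 1.11 and the other wildtype ligated arrays at 0.36 to 0.42, while among the receptors it lies at 0.48 between arrays at 0.39 and 0.66.

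Macrophage markers rose with ligation on the same arrays. All 12 macrophage markers rose in both genotypes, with list means from 2.24 to 2.52 in wildtype ligated and 2.14 to 2.39 in Has3-deficient ligated arteries, against -0.64 to -0.17 and -1.24 to -0.11 in non-ligated ones. Of 10 neutrophil markers 7 rose in each genotype, and 1 fell in Has3-deficient arteries, where 8.08% of all genes fell. All 7 smooth muscle markers fell in both genotypes, with median differences of -1.19 (wildtype) and -0.68 (Has3-deficient). The part of these cell types in the members' ligation response was not tested. On wildtype ligated array 3 the macrophage mean was 2.39, below those of arrays 1 (2.52) and 2 (2.44) and above that of array 4 (2.24), and the median excess of these markers on array 3 was -0.08. Neutrophil markers had means of 2.16, 1.88, 1.79 and 1.36 on arrays 1 to 4 of that group. Those of T and NK cells were at 0.08, 0.14, 0.26 and 0.22, and 4 of 11 of them were highest on array 3 (36.4%, beside 27.5% of all genes). Markers of plasmacytoid dendritic cells, which make type I interferon, had means of 0.04, 0.03, 0.24 and -0.06, and 4 of 7 were highest on array 3 (57.1%). With ligation in wildtype arteries 1 of these 7 markers was higher (Cd300c, 0.44 ± 0.12) and 1 lower (Siglech, -0.62 ± 0.17), with a median difference of 0.16. These counts are near the shares of all genes, 13.2% higher and 14.6% lower. Without wildtype ligated array 3, 0 of the 7 were higher and 1 was lower. Neuronal markers were highest on array 3 for 6 of 7 genes (85.7%), with list means of -0.20, -0.28, 0.17 and -0.29. Fibroblast markers were highest there for 4 of 7 genes (57.1%). Fat markers had means of -1.56, -1.32, -0.41 and 0.11. The part of these cell types in the excess on array 3 was not tested.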

How the data were processed

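Total RNA of carotid arteries (100 ng per array, WT Plus Reagent Kit, Affymetrix, per the labels) was hybridised to gene expression arrays. The deposited values are log2 numbers for 33793 probe sets, which the authors centred on each probe set's median over the 15 arrays, as every row median of 0 shows. Base 2 was inferred: a row whose numbers before centring were at least 8 spans 5.03 units, more than a scanner's range allows in base e. Software and between-array normalization: not given in the sources used here. Centring removed the levels, so no filter on dim probe sets was applied.

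Symbols came from the probe table given with the data; 23521 probe sets carried 1 symbol, 1814 several (not used) and 8458 none in that table. Means over probe sets gave 22180 genes. All 4 groups were fitted together with limma 3.58.1 (R 4.3.3; 11 residual and 2.69 prior degrees of freedom), and p-values were adjusted over all genes (Benjamini-Hochberg, 0.05). The fit was tested on simulated data. There were 0 pairs of identical arrays. The members and lists were chosen with earlier results of these data known. By the naming rule, values on every array are printed for up to 3 members with the largest wildtype response per role group and the smallest, and up to 4 passing genes per pathway list are named, those with the largest wildtype change. Same-numbered wildtype arrays were not treated as pairs, and their correlations are given in the closing section. Alternatives were other normalizations, array weights, fewer groups, a replicate block, another probe set, a robust prior and leaving out each array.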

Additional observations from a re-analysis of the deposited data

Results flagged for a closer look

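In the non-ligated groups of 4 arrays, 7 of 62 combinations of member and group (31 members in 2 groups) had 1 array separated from the rest by more than Dixon's 95% limit; chance flags about 1 in 20, and the members share their arrays. The wildtype ligated group was not tested in this way, since its array 3 was named as high when the list was set up. Has3-deficient non-ligated array 4 was apart as the highest for Gbp3 (0.13), Parp14 (0.0) and Irf9 (-0.1), and array 1 of that group as the lowest for Oas2 (-0.93). Among wildtype non-ligated arrays, array 3 was apart as the highest for Irf7 (-0.32) and Cmpk2 (0.1) and array 2 as the lowest for Bst2 (-0.77).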

How the results depend on the processing

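With 1 array left out, 20 to 23 members rose in wildtype (main value 22) and 19 to 26 in Has3-deficient arteries (22); 0 to 1 fell in the former and 0 in the latter. The 1 that fell was Ifit2, without wildtype ligated array 3 and also with array weights (1 member). The median response over the members ran in these fits from 0.58 to 0.89 for wildtype and from 0.76 to 0.95 for Has3-deficient arteries, lowest without ligated array 3 of the respective genotype. Quantile normalization, a common median, array weights, another probe set and a robust prior kept all 22 higher calls in each genotype. Quantile normalization added Ddx58 in wildtype and Mx2 and Rsad2 in Has3-deficient arteries, and array weights added Ifit1 in the latter. A fit of the compared groups alone lost Parp9 in wildtype and Xaf1 and Igtp in Has3-deficient arteries, where it added Mx2 (it has no counterpart for the difference of responses, which uses all groups).

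Same-numbered wildtype arrays had correlations of 0.028, 0.05, 0.103 and 0.164, beside -0.208 to 0.121 for wildtype arrays of different numbers. Such values cannot tell whether same-numbered arrays share an animal, and the numbers were not taken to pair them. Ligated and non-ligated Has3-deficient arrays share 1 number. With the replicate block 20 wildtype calls (21 in the wildtype arrays alone) remained. Numbers 5 and 6 occur on 1 array each, both Has3-deficient ligated. In that fit the Has3-deficient ligated group thus rests on its array 3 alone, and its ligation calls are not counted. The same limit holds in that fit for the genotype comparison in ligated arteries and for the difference of responses, which are not counted either. In the other fits with limma no genotype or interaction call was made, and no result changed direction among those called. The number of arrays limits the precision, and the centring keeps no signal over background.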
